A study of Mus musculus with 40 samples.

Results

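The genes described here are the interleukins and interleukin receptors of mouse lung other than the type 2 cytokines and a few well-studied neighbours. Members were the gene symbols of the array that begin with Il and a digit, without Il4, Il5, Il13, Il4ra, Il13ra1, Il13ra2, Il33, Il1rl1, Il6 and Il1b. Of 66 matching symbols 9 were left out in this way, which gave 57 members among 12393 measured genes. They comprised 28 ligands (counted with the soluble inhibitors Il1rn and Il18bp), 28 receptors or receptor-like proteins, and Il4i1, an amino acid oxidase that carries the symbol without being an interleukin. By family, 16 belonged to the IL-1 family, 11 to the common gamma chain family, 10 to the gp130 and IL-12 family, 9 to the IL-17 family, 5 to the IL-10 family and 3 to the common beta chain family. Il16, Il34 and Il4i1 stood outside these.

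RNA of whole lung was hybridised to 40 one-colour Affymetrix arrays, in 8 groups of 5. The groups were AJ mice, called hyperresponsive in the labels, and C3H mice, each 6 h or 24 h after aspiration of an allergen in phosphate-buffered saline (PBS) or of PBS alone. The titles abbreviate the allergen as OVA and the descriptions as HDM, so it is only called the allergen. Strain was read from the titles, since the descriptions put every array in AJ. Alleles, age, sex and any earlier sensitisation are not given in the sources used here. Whether the arrays of a group came from different mice is not said in the labels. The tests therefore measure the spread between the arrays of a group, and some of that spread may be technical.

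Interleukins are secreted signals through which leukocytes and lung tissue cells steer each other. The IL-1 family acts through receptors that recruit the adaptor MyD88 and activate NF-kappaB, and it is held in check by a receptor antagonist (IL-1Ra, Il1rn), a decoy receptor that binds without signalling (Il1r2) and a binding protein for IL-18 (Il18bp). Most other interleukins signal through Janus kinases and STAT factors: the common gamma chain family supports lymphocytes, gp130 is the shared chain of the IL-6 group, and IL-10 restrains inflammation. IL-17, which is not among these, calls in neutrophils through epithelium and stroma.

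The upstream sequences of the IL-1 axis are shown first, because its receptor, its decoy and its antagonist had the 3 largest rises in AJ at 6 h and passed again in AJ at 24 h and C3H at 6 h. Its ligand IL-1 alpha, which rose at 6 h in both strains, is shown with them. Il1r2 and Il1r1 lie next to each other on chromosome 1, followed by Il1rl2, Il1rl1, Il18r1 and Il18rap. Il1rn ends a run of IL-1 family ligands on chromosome 2 (Il1f8, Il1f9, Il1f6, Il1f5 and Il1f10), and Il1a lies beside Il1b on the same chromosome. The windows are the 250 bases before an annotated start (RefSeq, GRCm38.p6), written 5′ to 3′ on the gene's strand, with a match to 1 of 3 motifs in capitals.
Il1r2, chr1:40085843-40086092, plus strand: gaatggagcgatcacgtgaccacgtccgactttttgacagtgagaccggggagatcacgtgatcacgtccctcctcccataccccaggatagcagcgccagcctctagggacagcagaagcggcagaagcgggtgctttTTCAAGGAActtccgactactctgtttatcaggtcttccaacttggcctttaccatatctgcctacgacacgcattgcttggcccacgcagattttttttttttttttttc
Il1r1, second start, chr1:40266336-40266585, plus strand: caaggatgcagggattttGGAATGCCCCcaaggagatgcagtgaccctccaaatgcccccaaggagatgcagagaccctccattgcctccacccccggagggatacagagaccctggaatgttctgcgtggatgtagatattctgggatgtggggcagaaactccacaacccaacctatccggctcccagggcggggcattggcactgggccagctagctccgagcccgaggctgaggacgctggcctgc
Il1rn, first start, chr2:24336610-24336859, plus strand: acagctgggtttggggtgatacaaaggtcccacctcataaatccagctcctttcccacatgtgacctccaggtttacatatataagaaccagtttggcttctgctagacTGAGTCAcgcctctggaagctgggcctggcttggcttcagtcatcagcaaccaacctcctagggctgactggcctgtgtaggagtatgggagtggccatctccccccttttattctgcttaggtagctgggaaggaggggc
Il1a, chr2:129309973-129310222, minus strand: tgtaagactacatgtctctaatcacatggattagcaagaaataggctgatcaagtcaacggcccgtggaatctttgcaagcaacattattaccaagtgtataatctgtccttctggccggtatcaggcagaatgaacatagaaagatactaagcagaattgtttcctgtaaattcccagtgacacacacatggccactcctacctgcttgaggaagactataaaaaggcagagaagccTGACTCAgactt
The motifs searched on both strands were the STAT motif TTCNNNGAA, the AP-1 heptamer TGANTCA and the NF-kappaB consensus. The capitals mark a STAT motif 111 to 103 bases before the start of Il1r2, an NF-kappaB consensus 232 to 223 bases before the second start of Il1r1, and AP-1 heptamers 141 to 135 bases before the first start of Il1rn and 12 to 6 bases before that of Il1a. No 2 of these matches overlap. The other start of Il1r1 and the other starts of Il1rn hold none of these letters in their windows. Of 32851 starts in the RefSeq table, 7.02% hold the STAT motif, 6.75% the AP-1 heptamer and 7.25% the NF-kappaB consensus. Of 53 starts of the 42 members found in that table, the counts were 7, 10 and 3. A match is a description of the sequence and not a measured site.

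Levels are log2(intensity + 16), and a difference between groups is a difference of mean levels on that scale, with its limma standard error (SE). The pseudocount of 16 understates the change of dim genes. The median intensity lay below 16 for 11 members, and Il3, Il17b and Il25 were below 16 on all 40 arrays, so little can be read from them. A gene is said to have risen or fallen only where its Benjamini-Hochberg adjusted p over all 12393 genes was under 0.05 (limma, two-sided). The arrays held lung: the 9 lung epithelium markers summed to an intensity between 27537 and 42098 on every array. Of the 12 comparisons made, 24 members passed in at least 1 and 33 in none, where 32.7% of all genes passed in at least 1.

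In AJ lungs 6 h after allergen, 17 members rose and 0 fell, where 19.0% of all genes passed in either direction and 7.03% upward. They were Il1r1, Il1r2, Il1rn, Il1a and Il18rap of the IL-1 family, Il10, Il10ra and Il24, Il17ra and Il17a, Il21, Il21r, Il7r, Il2ra and Il2, Il34 and Il6st. Of the 28 ligands 8 rose and of the 28 receptors 9. By an unadjusted limma p under 0.05, 19 members were higher and 0 lower. The share of all genes at that unadjusted threshold is not given. This count, and those by an unadjusted p below, therefore have no background to be read against. The median difference of the members was 0.10, beside -0.07 over all genes. The share of upward calls over all genes depended on the scaling of the arrays, at 36.9% as deposited and 53.2% with median centring, while 17 members rose and 0 fell under both.

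In AJ lungs at 24 h, 9 members rose and 1 fell, against 7.84% of all genes in either direction (upward 4.56%, downward 3.28%). Il1r1, Il1rn, Il18bp, Il7r, Il21, Il21r, Il1r2, Il17ra and Il10 rose, and Il17rc fell. In C3H lungs at 6 h, 10 members rose and 0 fell, against 7.62% of all genes (upward 3.93%, downward 3.69%): Il1rn, Il1r1, Il1r2, Il18bp, Il1a, Il5ra, Il10, Il6st, Il34 and Il15. By an unadjusted limma p, 19 were higher and 1 lower there. In C3H lungs at 24 h, Il18bp alone rose and 0 fell, against 3.24% of all genes (upward 2.1%, downward 1.15%), and by an unadjusted limma p 8 members were higher and 6 lower. Median differences of the members in these comparisons were 0.05, 0.20 and -0.06, beside -0.00, -0.00 and -0.04 over all genes. Without allergen array 5, 3 members passed in C3H at 24 h, as Il21r reached 0.74 (adjusted p = 0.0472) and Il1f9 -0.68 (adjusted p = 0.0451). Il10, Il18bp, Il1r1, Il1r2 and Il1rn passed in 3 of the 4 allergen comparisons, and 0 members passed in all 4.

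**Figure D1:**
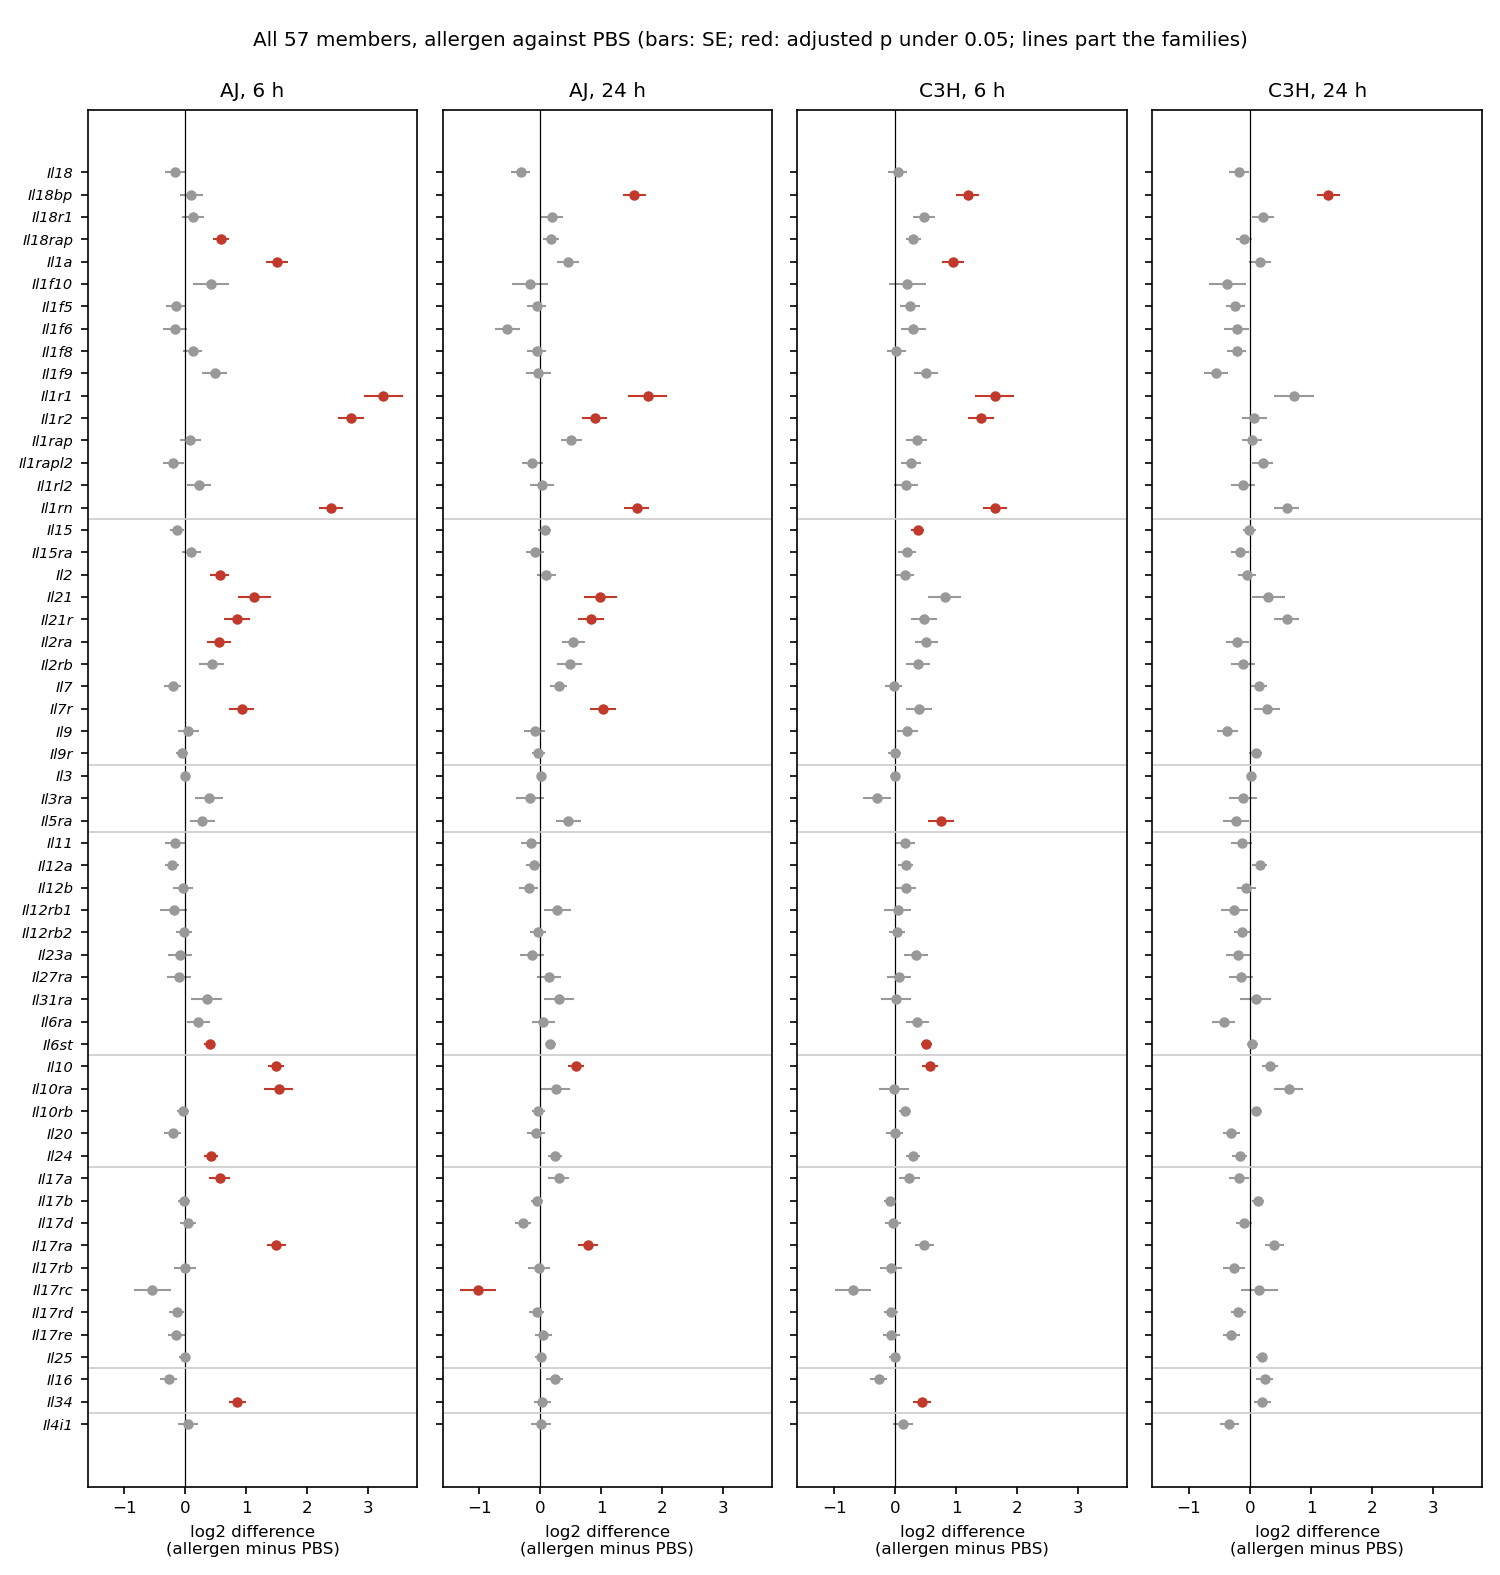
Difference of each of the 57 members between allergen and PBS (log2 scale, x axis) in AJ at 6 h and 24 h and in C3H at 6 h and 24 h, with the limma standard error as bars, families parted by lines, and red where the adjusted p was under 0.05. Il1r1, at 3.24 in AJ at 6 h, has the largest value, and Il18bp is the single red point in C3H at 24 h.

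Il1r1, the receptor that carries the IL-1 signal, had the largest difference of all members. In AJ at 6 h its levels were 5.24, 6.25, 6.79, 5.20 and 5.23 with PBS and 9.72, 8.78, 9.01, 8.82 and 8.58 with allergen, in the order of the labelled array numbers, as in all lists that follow. The groups lay far apart, and the difference was 3.24 ± 0.32 (adjusted p = 7.57e-10). At 24 h the AJ levels were 6.06, 5.20, 5.14, 5.33 and 5.52 with PBS and 7.42, 7.38, 6.94, 7.45 and 6.88 with allergen, again without overlap, a difference of 1.76 ± 0.32 (adjusted p = 0.000218). In C3H at 6 h the levels were 6.66, 5.23, 7.02, 6.90 and 6.65 with PBS and 9.03, 8.69, 7.71, 6.98 and 8.21 with allergen. Here the lowest allergen array lay just under the highest PBS array, and the difference was 1.63 ± 0.32 (adjusted p = 0.000819). In C3H at 24 h the difference of 0.72 ± 0.32 did not pass (adjusted p = 0.225), although 6.35, 6.03, 5.91, 5.36 and 6.30 with PBS and 7.04, 6.61, 6.41, 6.88 and 6.63 with allergen do not overlap. Fitted on the arrays of the 2 groups alone, the C3H difference at 6 h no longer passed (adjusted p = 0.0516).

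Il1r2, the decoy that binds IL-1 without signalling, rose in the same 3 comparisons. In AJ at 6 h its levels were 6.07, 6.50, 6.24, 6.49 and 6.41 with PBS and 9.26, 9.27, 8.87, 9.14 and 8.72 with allergen, a difference of 2.71 ± 0.21 (adjusted p = 2.2e-12). The C3H levels at 6 h were 6.59, 5.76, 6.29, 6.26 and 6.34 with PBS and 8.15, 8.76, 6.98, 6.96 and 7.43 with allergen, a difference of 1.41 ± 0.21 (adjusted p = 1.11e-05). Allergen arrays 1 and 2 of C3H stood above the other 3, and no allergen array reached into the PBS range. At 24 h the AJ levels were 6.07, 5.76, 6.06, 6.20 and 5.82 with PBS and 7.07, 6.86, 6.67, 6.57 and 7.20 with allergen (0.89 ± 0.21, adjusted p = 0.00413), without overlap. The C3H levels at 24 h were 6.10, 5.81, 5.92, 5.70 and 6.01 with PBS and 6.06, 6.04, 5.69, 6.04 and 6.06 with allergen. These overlapped, with a difference of 0.07 ± 0.21 (adjusted p = 0.903).

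Il1rn, which encodes the antagonist that occupies the IL-1 receptor, rose by 2.39 ± 0.20 (adjusted p = 8.33e-12) in AJ at 6 h, from 6.57, 7.0, 6.76, 6.49 and 6.41 with PBS to 9.41, 8.92, 9.23, 8.67 and 8.97 with allergen. At 24 h in AJ it rose by 1.58 ± 0.20 (adjusted p = 3.04e-07), from 6.37, 6.10, 6.54, 6.63 and 6.31 to 8.25, 8.10, 8.25, 8.03 and 7.21, with allergen array 5 below the other 4 and still above every PBS array. It also rose in C3H at 6 h, by 1.64 ± 0.20 (adjusted p = 2.22e-07), from 7.41, 6.71, 7.30, 6.50 and 7.15 to 9.13, 8.99, 8.0, 8.56 and 8.58. In C3H at 24 h all allergen arrays (7.18, 6.83, 7.35, 6.85 and 6.78) lay above all PBS arrays (6.48, 6.28, 6.08, 6.67 and 6.45), yet the difference of 0.60 ± 0.20 did not pass (adjusted p = 0.0849). Each of the 3 Il1rn probe sets rose in the first 3 comparisons, by 2.39, 2.47 and 1.03 in AJ at 6 h. The dimmest of them stood at -0.58 in C3H at 24 h, so the probe sets disagree on the direction there.

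Il1a, the IL-1 alpha ligand that cells release on damage, rose at 6 h in both strains. In AJ the levels were 6.10, 6.45, 5.66, 5.75 and 5.31 with PBS and 7.29, 7.90, 7.05, 7.17 and 7.36 with allergen, fully apart, for a difference of 1.5 ± 0.18 (adjusted p = 7.51e-08). In C3H they were 6.09, 5.46, 5.82, 5.81 and 6.23 with PBS and 6.94, 6.68, 6.94, 7.39 and 6.23 with allergen, where the lowest allergen array met the highest PBS array, for a difference of 0.95 ± 0.18 (adjusted p = 0.000598). At 24 h the AJ levels were 5.75, 5.37, 5.71, 5.15 and 5.20 with PBS and 5.85, 5.99, 6.20, 5.67 and 5.76 with allergen, and the C3H levels 5.71, 5.86, 5.84, 5.86 and 5.59 and 5.66, 5.95, 6.02, 5.93 and 6.09. Neither the difference of 0.46 ± 0.18 in AJ (adjusted p = 0.142) nor that of 0.16 ± 0.18 in C3H (adjusted p = 0.709) passed. With a pseudocount of 64 the 6 h differences of Il1a were 0.99 and 0.61, the AJ differences at 24 h of Il1r1 and Il1r2 were 1.09 and 0.57, and all still passed.

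**Figure D2:**
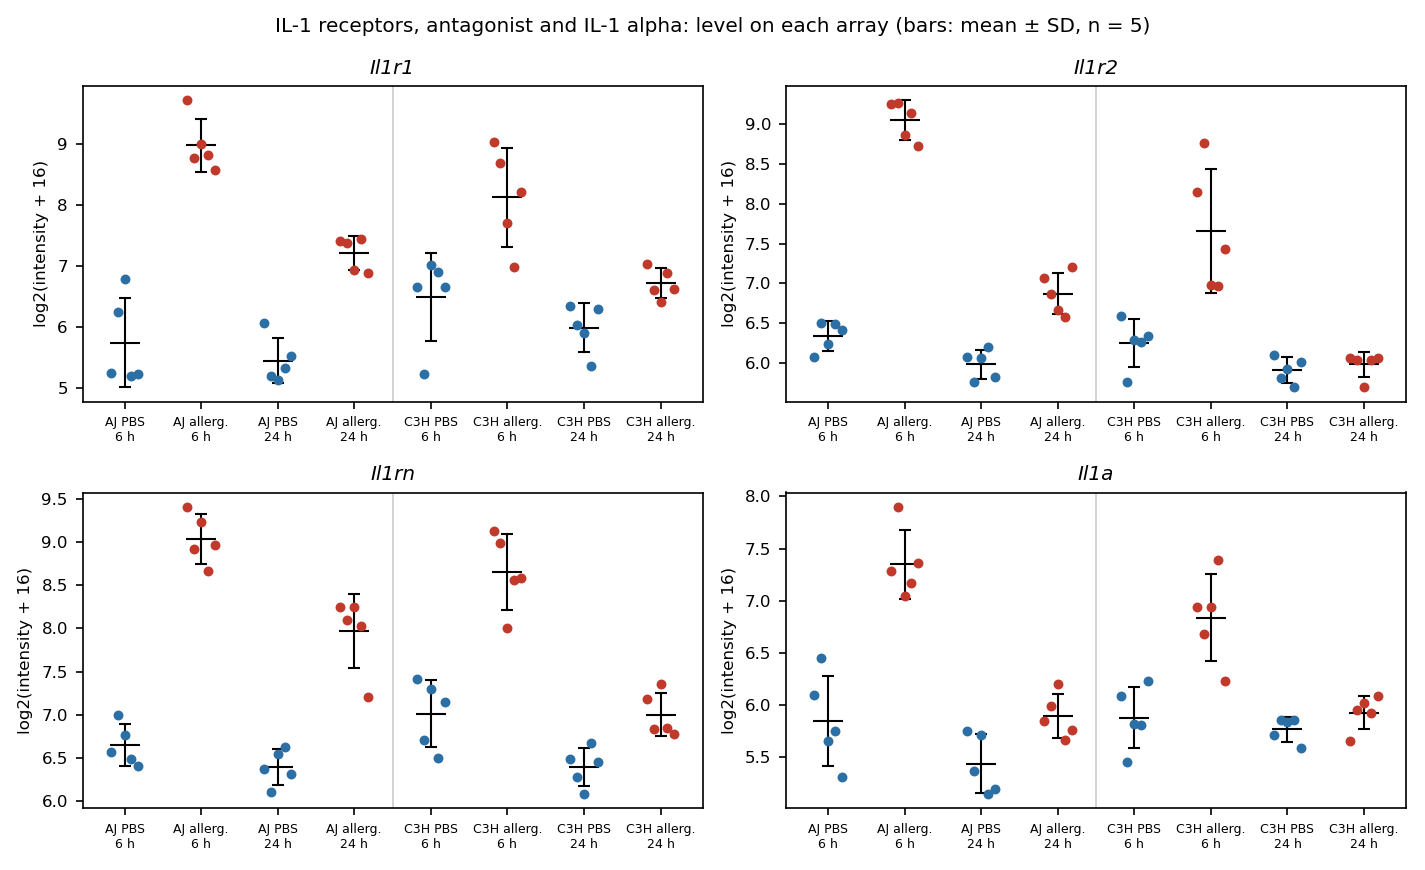
Level of Il1r1, Il1r2, Il1rn and Il1a on each array (log2(intensity + 16), y axis) in the 8 groups, PBS in blue and allergen in red, with mean and SD over 5 arrays. The 5 AJ allergen arrays at 6 h lie above all PBS arrays of AJ for each of these genes, and the C3H allergen arrays at 6 h spread widely, from 6.96 to 8.76 for Il1r2.

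Markers of neutrophils were read beside these genes. Of 14 listed, 11 were measured, and 10 of them rose in AJ at 6 h, 5 in AJ at 24 h, 6 in C3H at 6 h and 1 in C3H at 24 h. Their summed intensity ran from 1567 to 3765 with PBS and 9607 to 12678 with allergen in AJ at 6 h, and from 1544 to 2335 and 5027 to 10093 at 24 h. In C3H it ran from 2125 to 3789 and 5375 to 14254 at 6 h, and from 1701 to 2139 and 2861 to 4425 at 24 h. The 1 marker that rose in C3H at 24 h was Lcn2 (1.62 ± 0.25), the brightest of the 11 by mean level. Bright markers weigh most in such a sum. The median difference of the 11 was 0.14 there, with S100a8 at 0.32 and S100a9 at 0.25. None of these markers was at 0 on any array, but no deposited value of any gene was, so this does not show detection. The C3H allergen arrays at 6 h summed to 11645, 14254, 5458, 5375 and 7101, so that arrays 1 and 2 were the highest here as for Il1r1, Il1r2 and Il1rn. They were also the highest for summed markers of macrophages, monocytes and dendritic cells (3839 and 4435) and of B and plasma cells (2325 and 4181). Il1a went another way, and was highest on the array with the lowest neutrophil sum, 5375. The AJ allergen arrays at 24 h had neutrophil sums of 9744, 5971, 5352, 5027 and 10093. Array 5, the highest there, was the lowest for Il1r1 and Il1rn and the highest for Il1r2. The part of neutrophils in these results was not tested, and in whole lung more cells of a type and more RNA per cell cannot be told apart.

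The remaining members of the IL-1 family mostly did not pass. Il18rap, the accessory chain of the IL-18 receptor, rose by 0.59 ± 0.13 (adjusted p = 0.00107) in AJ at 6 h, from 6.28, 6.12, 5.94, 6.43 and 6.04 to 6.81, 6.69, 6.81, 6.87 and 6.60. Il18 itself, the ligand, had group means between 7.51 and 8.05 and passed in no comparison. In AJ at 6 h it read 7.81, 7.50, 7.78, 7.52 and 7.80 with PBS and 7.61, 7.65, 7.47, 7.44 and 7.38 with allergen. Its differences from PBS ran from -0.32 in AJ at 24 h (adjusted p = 0.272) to 0.04 in C3H at 6 h (adjusted p = 0.941). The IL-36 ligands Il1f6, Il1f8 and Il1f9, their antagonist Il1f5, their receptor Il1rl2, the related ligand Il1f10 and the shared accessory chain Il1rap passed in none of the allergen comparisons, nor did Il18r1 and the receptor-like Il1rapl2. Il1f9 came nearest at 6 h, at 0.48 ± 0.20 in AJ (adjusted p = 0.0872) and 0.51 ± 0.20 in C3H (adjusted p = 0.111).

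Il18bp, which binds and neutralises IL-18, rose in AJ at 24 h, where it had not passed at 6 h, and in C3H at both times. In AJ at 6 h its levels were 4.52, 4.69, 4.50, 4.53 and 4.38 with PBS and 4.43, 5.11, 4.64, 4.57 and 4.36 with allergen, overlapping, with a difference of 0.10 ± 0.19 (adjusted p = 0.809). In AJ at 24 h they were 4.53, 4.60, 4.48, 4.58 and 5.62 with PBS and 6.46, 6.31, 6.24, 6.31 and 6.17 with allergen, a difference of 1.54 ± 0.19 (adjusted p = 2.04e-07). PBS array 5 stood above the other 4 PBS arrays, and no allergen array was as low. In C3H at 6 h the levels were 5.34, 4.55, 4.38, 4.55 and 4.50 with PBS and 6.15, 6.31, 5.66, 5.37 and 5.76 with allergen (1.19 ± 0.19, adjusted p = 3.21e-05), and at 24 h 4.56, 4.68, 4.56, 4.56 and 4.48 and 6.03, 6.24, 5.55, 5.99 and 5.45 (1.28 ± 0.19, adjusted p = 2.09e-05). The groups did not overlap in C3H at either time. Il18bp was below 16 in intensity on 22 of the 40 arrays, so the size depends on the pseudocount: in AJ at 24 h and in C3H at 6 h and 24 h it was 2.52, 2.14 and 2.28 with 1 and 0.74, 0.53 and 0.57 with 64. Of 11 measured markers of macrophages, monocytes and dendritic cells (12 listed), 6 rose in AJ at 6 h, 9 in AJ at 24 h and 5 in C3H at each time. Their summed intensity lay between 2314 and 3072 on the PBS arrays, and with allergen ran from 3383 to 4380 and 4579 to 5427 in AJ at 6 h and 24 h, and from 3164 to 4435 and 3299 to 4008 in C3H. None was at 0, as holds for every deposited value, and their part in the result was not tested.

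In the IL-10 family, Il10 and its receptor chain Il10ra rose together in AJ at 6 h. Il10, a cytokine that restrains inflammation, went from 5.78, 5.50, 5.63, 5.65 and 5.56 with PBS to 7.38, 7.16, 7.01, 7.32 and 6.70 with allergen, a difference of 1.49 ± 0.13 (adjusted p = 4.29e-11). At 24 h in AJ the levels were 5.37, 5.68, 5.73, 6.03 and 5.23 and 6.16, 6.05, 6.04, 6.32 and 6.35 (0.58 ± 0.13, adjusted p = 0.00316), and in C3H at 6 h 5.72, 5.42, 5.83, 5.70 and 5.88 and 6.04, 6.46, 5.98, 6.49 and 6.42 (0.57 ± 0.13, adjusted p = 0.00443). None of these 3 pairs of groups overlapped, though the last 2 were nearly in contact. In C3H at 24 h the difference was 0.32 ± 0.13 (adjusted p = 0.189). With a pseudocount of 64 the 3 differences that passed were 0.94, 0.31 and 0.32, and on the arrays of the 2 groups alone the one in C3H no longer passed (adjusted p = 0.0509).

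Il10ra, the chain that binds IL-10, had levels of 4.54, 4.39, 4.35, 4.57 and 4.68 with PBS and 5.6, 6.55, 6.12, 6.18 and 5.73 with allergen in AJ at 6 h, without overlap, a difference of 1.53 ± 0.24 (adjusted p = 6.57e-06). In C3H at 6 h 4.88, 4.54, 4.58, 5.31 and 5.96 with PBS and 6.04, 4.67, 4.60, 4.71 and 5.16 with allergen covered the same range, a difference of -0.02 ± 0.24 (adjusted p = 0.984). This rests on the brightest of 3 probe sets, which was below 16 in intensity on 24 of 40 arrays: the others gave 0.18 and -0.01 in AJ at 6 h, and the mean of all 3 gave 0.57. The size was 2.72 with a pseudocount of 1 and 0.69 with 64. Il24 and Il20 lie in the same stretch of chromosome 1 as Il10. Il24, a cytokine of the IL-20 group, rose by 0.42 ± 0.12 (adjusted p = 0.0141) in AJ at 6 h, from 5.97, 5.76, 6.07, 5.94 and 5.80 to 6.25, 6.65, 6.16, 6.24 and 6.32, but without allergen array 2 it was at 0.34 (adjusted p = 0.0655), and with a pseudocount of 64 it was 0.25. Il20 and the shared receptor chain Il10rb passed in no comparison.

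In the IL-17 family, Il17ra and Il17a rose in AJ at 6 h, and Il17ra also at 24 h. Il17ra, the chain common to the IL-17 receptors, went from 6.61, 7.40, 6.64, 6.51 and 6.91 to 7.72, 8.81, 8.14, 8.41 and 8.47 in AJ at 6 h, a difference of 1.49 ± 0.16 (adjusted p = 5.1e-09). At 24 h it went from 6.62, 6.62, 6.99, 6.47 and 7.02 to 7.54, 7.26, 7.56, 7.53 and 7.75 (0.78 ± 0.16, adjusted p = 0.00102). The groups were apart at both times. In C3H at 6 h, 7.26, 7.21, 7.29, 7.61 and 6.87 with PBS and 7.79, 7.92, 7.71, 7.57 and 7.61 with allergen overlapped by 1 array, and the difference of 0.48 ± 0.16 did not pass (adjusted p = 0.0669). The second Il17ra probe set gave 1.47 and 0.57 in AJ and 0.51 in C3H at 6 h, and all 3 passed among the 20380 probe sets (adjusted p = 0.02 for the last). In C3H at 24 h the brightest probe set stood at 0.40 ± 0.16 (adjusted p = 0.18). The neutrophil markers given above were also higher in sum with allergen than with PBS on every AJ array at both times, as for Il10. The same held for the summed markers of T and NK cells, of B and plasma cells, and of macrophages, monocytes and dendritic cells. The part of any of these cells in these results was not tested.

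Il17a, the founding ligand, rose by 0.56 ± 0.17 (adjusted p = 0.0164) in AJ at 6 h, from 6.52, 6.37, 6.45, 6.67 and 6.31 to 6.86, 7.50, 6.96, 6.92 and 6.87. Allergen array 2 stood above the rest, and without it the difference was 0.44 and did not pass (adjusted p = 0.0782). Il17rc, the chain that pairs with Il17ra for IL-17A, was the single member that fell with allergen, with a difference of -1.02 ± 0.30 (adjusted p = 0.0263) in AJ at 24 h, from 6.91, 6.82, 6.93, 6.47 and 7.32 to 6.26, 5.67, 4.99, 6.84 and 5.58. The groups overlap, and the call was lost without allergen array 2, 3 or 5 or PBS array 1, 3 or 5 (adjusted p from 0.0505 to 0.124) and on the arrays of the 2 groups alone (adjusted p = 0.0513). With a pseudocount of 64 the value was -0.62. Il17b, Il17d, Il25, Il17rb, Il17rd and Il17re did not pass in any comparison by their brightest probe sets, and the second Il17re probe set was at -0.45 in C3H at 6 h (adjusted p = 0.0485 over probe sets).

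**Figure D3:**
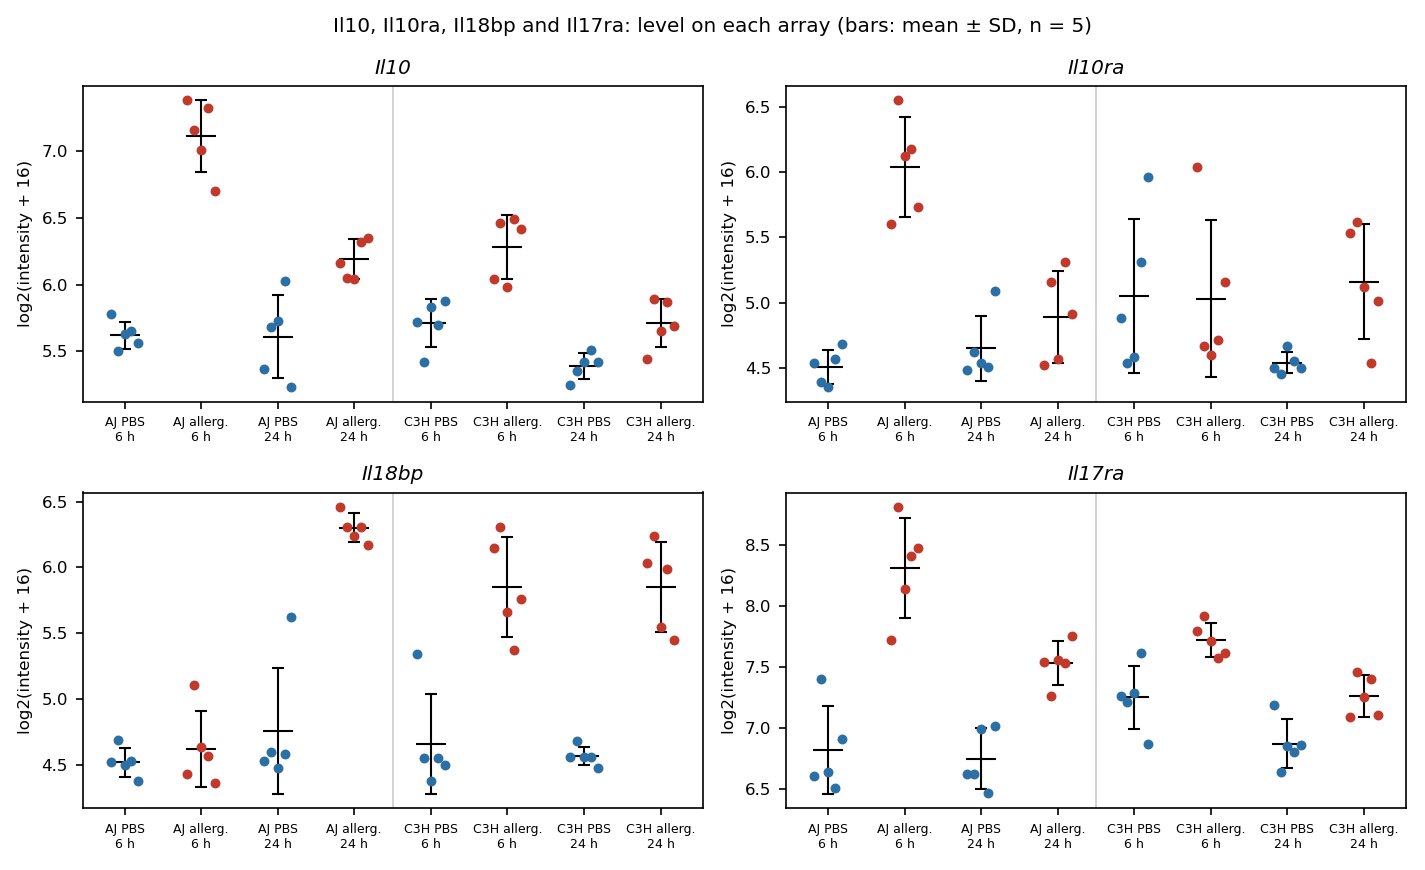
Level of Il10, Il10ra, Il18bp and Il17ra on each array (log2(intensity + 16), y axis) in the 8 groups, PBS in blue and allergen in red, with mean and SD over 5 arrays. Il18bp is low on the AJ allergen arrays at 6 h, between 4.36 and 5.11, and high on those at 24 h, between 6.17 and 6.46, whereas the means of Il10 and Il17ra are highest with allergen in AJ at 6 h.

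Of the 11 members of the common gamma chain family, which serves lymphocyte growth and survival, 5 rose in AJ at 6 h, 3 in AJ at 24 h, 1 in C3H at 6 h and 0 in C3H at 24 h, and 0 fell. Over all genes 19.0%, 7.84%, 7.62% and 3.24% passed in these comparisons, so the counts in C3H are near those shares. In C3H at 24 h their differences ran from -0.37 to 0.60. Tested between strains, the allergen difference of 0 of the 11 differed at 6 h or at 24 h. Over all genes 2.15% and 0.46% passed that test at 6 h and 24 h. Il7r, the IL-7 receptor of lymphocytes, went from 6.59, 6.63, 6.59, 6.53 and 6.65 to 8.31, 7.32, 7.11, 7.45 and 7.38 in AJ at 6 h (0.92 ± 0.21, adjusted p = 0.00124). At 24 h it went from 5.73, 6.03, 6.20, 6.15 and 6.35 to 7.51, 7.15, 7.13, 6.73 and 7.07 (1.03 ± 0.21, adjusted p = 0.000908). The groups did not overlap at either time. In C3H the differences were 0.39 ± 0.21 at 6 h (adjusted p = 0.311) and 0.28 ± 0.21 at 24 h (adjusted p = 0.511).

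Il21, a cytokine of helper T cells, went from 4.27, 4.78, 5.41, 5.16 and 4.74 to 6.64, 5.88, 6.31, 5.67 and 5.53 in AJ at 6 h (1.13 ± 0.27, adjusted p = 0.00154) and from 4.66, 4.29, 5.05, 5.42 and 4.22 to 5.57, 5.93, 5.55, 5.89 and 5.62 at 24 h (0.98 ± 0.27, adjusted p = 0.0142). The groups were apart at both times, by a narrow margin. Without PBS array 2 or 5 the 24 h difference was 0.87 (adjusted p = 0.0538) or 0.86 (adjusted p = 0.0557). In C3H at 6 h the difference of 0.81 ± 0.27 did not pass (adjusted p = 0.0557), but it did without allergen array 1, allergen array 3 or PBS array 5 (0.95, 0.88 and 0.88). Its receptor Il21r went from 4.69, 4.23, 4.42, 4.38 and 4.17 to 5.27, 5.47, 5.45, 4.36 and 5.6 in AJ at 6 h (0.85 ± 0.21, adjusted p = 0.00289), with allergen array 4 down among the PBS arrays, and from 4.48, 4.24, 4.47, 4.22 and 4.95 to 5.26, 4.94, 5.66, 5.50 and 5.18 at 24 h (0.83 ± 0.21, adjusted p = 0.00855), where the groups just touched. Both genes were dim, and with pseudocounts of 1 and 64 the AJ differences at 6 h and 24 h were 1.91 and 0.54, 1.94 and 0.42 for Il21, and 1.93 and 0.33, 1.89 and 0.32 for Il21r.

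Il2ra, the high-affinity chain of the IL-2 receptor, went from 6.32, 5.53, 5.22, 5.33 and 5.48 to 6.08, 5.94, 5.99, 6.17 and 6.43 in AJ at 6 h (0.55 ± 0.19, adjusted p = 0.034), where PBS array 1 reached into the allergen range. The call was lost without allergen array 4 or 5 or any PBS array but the first (adjusted p from 0.0633 to 0.108), and on the arrays of the 2 groups alone (0.0736), and with a pseudocount of 64 the value was 0.29. Near values in AJ at 24 h (0.54) and C3H at 6 h (0.51) did not pass, and C3H at 24 h stood at -0.21. In AJ at 24 h it passed on the arrays of the 2 groups alone (adjusted p = 0.0349). In C3H at 6 h it passed with the mean of its probe sets (0.60, adjusted p = 0.0152). The second Il2ra probe set gave 0.67, 0.41, 0.69 and -0.04 in AJ at 6 h and 24 h and C3H at 6 h and 24 h. Il2, its ligand, was below 16 in intensity on 38 of 40 arrays. Its rise in AJ at 6 h, from 4.09, 4.33, 4.33, 4.19 and 4.18 to 4.50, 5.18, 4.21, 5.57 and 4.46 (0.56 ± 0.15, adjusted p = 0.0075), was largest on allergen arrays 2 and 4. Without array 4 it was 0.36 (adjusted p = 0.0573), and on the arrays of the 2 groups alone the adjusted p was 0.122. With pseudocounts of 1 and 64 it was 1.58 and 0.20. Il15, which supports natural killer cells, passed in C3H at 6 h alone, from 5.37, 5.46, 5.40, 5.67 and 5.87 to 5.64, 6.08, 5.99, 6.05 and 5.85 (0.37 ± 0.11, adjusted p = 0.0341). It lost the call without allergen array 2, 3 or 4 or PBS array 1, 2 or 3 (adjusted p from 0.0641 to 0.107) and on the arrays of the 2 groups alone (0.182), and with a pseudocount of 64 it was 0.19.

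The chain shared by the IL-2 and IL-15 receptors gave unlike answers from its 2 probe sets. The brighter Il2rb probe set stood at 0.43, 0.48, 0.37 and -0.12 in AJ at 6 h and 24 h and C3H at 6 h and 24 h, and passed in none. The dimmer one went from 5.12, 4.57, 4.55, 4.63 and 4.77 to 6.70, 6.37, 6.33, 6.27 and 5.40 in AJ at 6 h, 1.49 ± 0.29 (SE, adjusted p = 0.000195 over probe sets). It also rose in AJ at 24 h (1.48, adjusted p = 0.000637) and in C3H at 6 h (1.07, adjusted p = 0.018), and stood at 0.99 in C3H at 24 h (adjusted p = 0.0561). The dimmer probe set of Il15ra, the IL-15 binding chain, likewise rose in AJ at 6 h, from 5.02, 6.54, 5.10, 5.04 and 5.79 to 6.81, 7.21, 6.38, 6.09 and 6.49 with an overlap (1.10, adjusted p = 0.008), where the brighter one stood at 0.10. The ligands Il7 and Il9 and the receptor Il9r passed in no comparison. Il9, a growth factor of mast cells, had group means between 5.05 and 5.57, and read 5.86, 5.23, 5.46, 5.32 and 4.84 with PBS and 5.26, 5.30, 5.58, 5.23 and 5.57 with allergen in AJ at 6 h.

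Markers of T and NK cells were read beside this family. Of 15 measured (17 listed), 4 rose in AJ at 6 h, 4 in AJ at 24 h, 1 in C3H at 6 h and 3 in C3H at 24 h. Their summed intensity ran from 430 to 660 with PBS and 892 to 1282 with allergen in AJ at 6 h, and from 495 to 731 and 802 to 1995 at 24 h. In C3H it ran from 646 to 720 and 748 to 1195 at 6 h, and from 535 to 757 and 583 to 1560 at 24 h. None was at 0, as holds for every deposited value, and the part of these cells in the result was not tested.

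**Figure D4:**
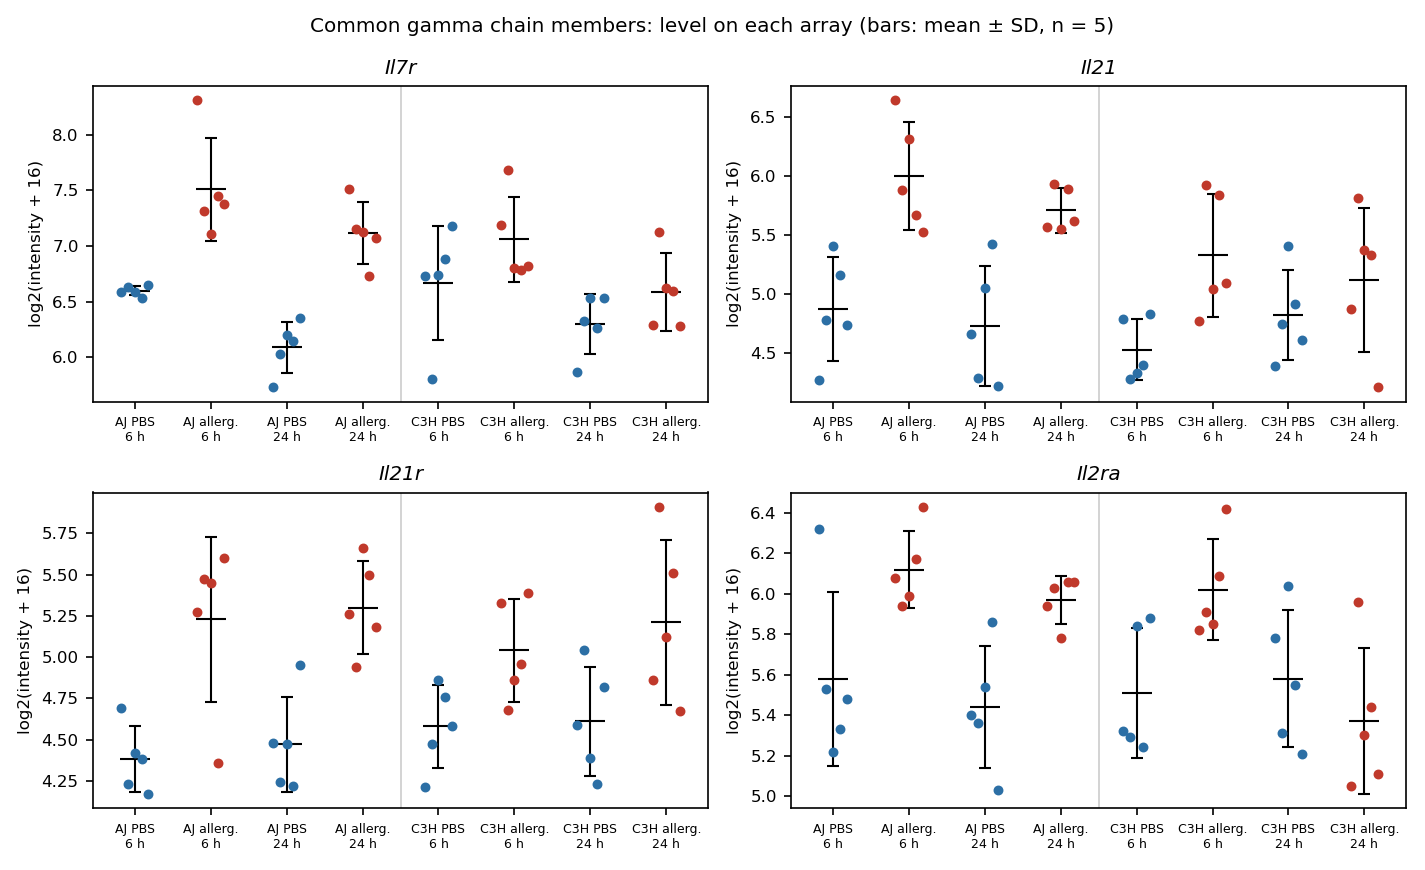
Level of Il7r, Il21, Il21r and Il2ra on each array (log2(intensity + 16), y axis) in the 8 groups, PBS in blue and allergen in red, with mean and SD over 5 arrays. In AJ the Il7r and Il21 arrays with allergen lie above those with PBS at both times, while the C3H groups overlap for Il7r and Il21 at both times.

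Of the 10 members of the gp130 and IL-12 family, Il6st alone passed with allergen, at 6 h in each strain, and 0 passed at 24 h. Over all genes 19.0% and 7.62% passed at 6 h in AJ and C3H, and 7.84% and 3.24% at 24 h. The counts of this family are thus not above those shares by more than 1 member. Il6st encodes gp130, the signalling chain shared by IL-6, IL-11 and related cytokines. It rose from 9.47, 9.5, 9.42, 9.60 and 9.43 to 9.90, 9.66, 10.06, 9.85 and 9.96 in AJ at 6 h (0.40 ± 0.09, adjusted p = 0.00127) and from 10.05, 9.83, 9.94, 9.90 and 10.05 to 10.65, 10.34, 10.25, 10.48 and 10.62 in C3H (0.51 ± 0.09, adjusted p = 0.00021), with no overlap in either strain. These are levels of the brightest Il6st probe set. The other probe sets gave 0.72 and 0.68 in AJ and 0.54 and 0.74 in C3H at 6 h, and for each the groups overlapped in both strains. Il6ra, which binds IL-6 and pairs with gp130, read 7.18, 7.17, 6.99, 7.79 and 6.59 with PBS and 7.38, 7.10, 7.17, 7.48 and 7.64 with allergen in AJ at 6 h. Its difference from PBS ranged between -0.43 in C3H at 24 h (adjusted p = 0.225) and 0.36 in C3H at 6 h (adjusted p = 0.303). The IL-12 and IL-23 subunits Il12a, Il12b and Il23a, their receptor chains Il12rb1 and Il12rb2, Il11, Il27ra and Il31ra passed in none of the 12 comparisons. Il12b, the subunit common to IL-12 and IL-23, had group means between 5.44 and 5.71, and read 5.49, 5.78, 5.61, 5.29 and 5.51 with PBS and 5.75, 4.98, 5.48, 5.61 and 5.65 with allergen in AJ at 6 h.

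Outside these families, Il34, a ligand of the macrophage growth factor receptor, rose from 6.21, 6.54, 5.70, 6.53 and 6.33 to 7.02, 7.05, 7.16, 7.08 and 7.24 in AJ at 6 h (0.85 ± 0.14, adjusted p = 1.41e-05), with all allergen arrays above all PBS arrays. The C3H levels at 6 h went from 6.17, 6.88, 6.69, 6.28 and 6.31 to 7.18, 6.83, 6.93, 7.05 and 6.56 (0.44 ± 0.14, adjusted p = 0.0441), with overlap. The C3H call was lost without allergen array 1, 2, 3 or 4 or PBS array 1, 4 or 5 (adjusted p from 0.0612 to 0.147), on the arrays of the 2 groups alone (0.2) and with a pseudocount of 1 (0.0631). Il5ra, the IL-5 binding chain of eosinophils and basophils, rose in C3H at 6 h from 4.92, 4.28, 4.92, 4.86 and 5.18 to 5.36, 5.70, 5.59, 5.32 and 5.93 (0.75 ± 0.21, adjusted p = 0.0208), without overlap. That call was lost without allergen array 2 or 5 or PBS array 2 (adjusted p from 0.0521 to 0.0894), and the size was 1.38 with a pseudocount of 1, where it no longer passed (adjusted p = 0.0622), and 0.32 with 64. Il16 and Il4i1 passed in no comparison.

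The strains were then compared in their response at 6 h (the difference in C3H minus that in AJ, from the same 20 arrays). Of the members, 1 was higher and 4 lower in C3H, where 2.15% of all genes passed (1.15% higher and 1.01% lower). The response of C3H was smaller for Il10ra (-1.55 ± 0.34, adjusted p = 0.00747), Il1r2 (-1.30 ± 0.30, adjusted p = 0.0108), Il17ra (-1.02 ± 0.23, adjusted p = 0.0099) and Il10 (-0.92 ± 0.19, adjusted p = 0.00381), and larger for Il18bp (1.09 ± 0.27, adjusted p = 0.0177). Il1r1 had the widest gap between strains, -1.61 ± 0.46, and narrowly missed the threshold (adjusted p = 0.0533). It passed under several alternatives, among them without PBS array 2 of C3H, which stood apart from its group (-1.93, adjusted p = 0.00771). It did not pass with quantile normalization, a pseudocount of 1 or only the arrays compared, nor in most fits that left out 1 array. For Il1rn the gap was -0.75 ± 0.28 (adjusted p = 0.171) and for Il1a -0.55 ± 0.26 (adjusted p = 0.346). Among neutrophil markers, 2 of 11 also responded less in C3H, 0 more, with a median of -0.83.

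These strain differences depended on the fit in several ways. On the 20 arrays of the groups compared alone, Il10 still passed, and Il1r2 (adjusted p = 0.103), Il10ra (0.0563), Il17ra (0.0715) and Il18bp (0.0551) did not. Il18bp also lost the call with quantile normalization (0.97, adjusted p = 0.0864) and median centring (1.0, adjusted p = 0.0561), and its value was 1.94 with a pseudocount of 1 and 0.49 with 64. Over all genes the share of calls that were higher in C3H went from 53.2% as deposited to 34.6% with median centring, where 0 members were higher and 5 lower. Il10ra rested on 1 of 3 probe sets, with -0.37 (adjusted p = 0.38) for their mean, and its value was -2.75 with a pseudocount of 1 and -0.70 with 64. The second Il17ra probe set gave -0.96 (adjusted p = 0.00432 over probe sets).

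**Figure D5:**
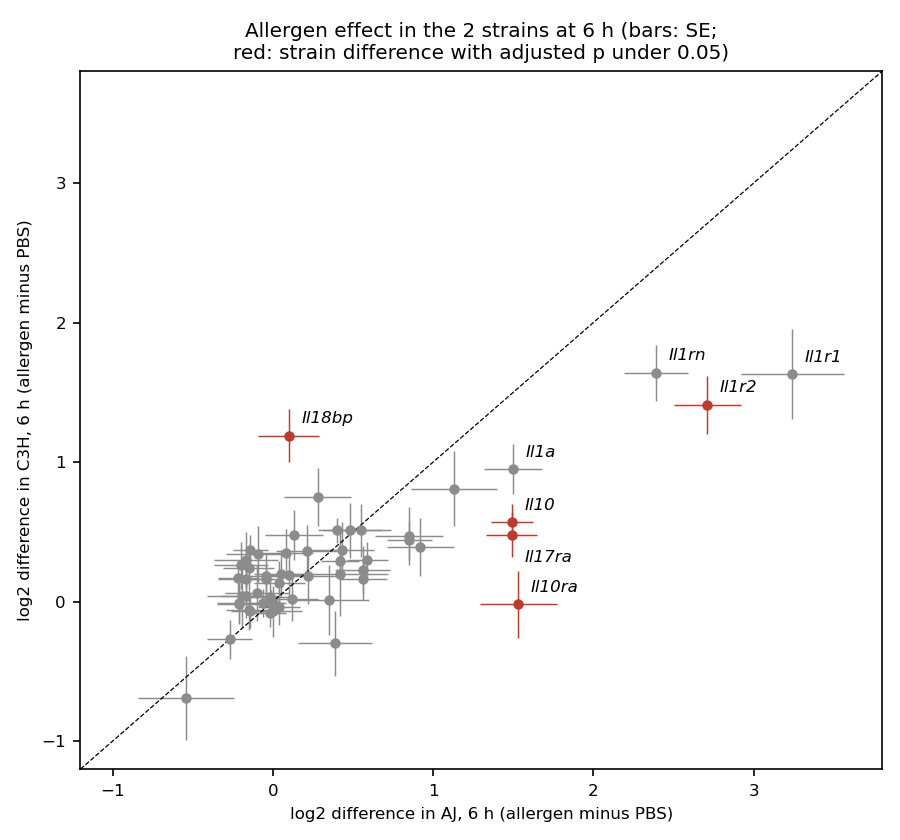
Difference between allergen and PBS at 6 h in C3H (y axis) against AJ (x axis) for the 57 members, log2 scale, with limma standard errors, a dashed line of equal values, and red where the strain difference had an adjusted p under 0.05. Of the 5 red genes, 4 lie under the line, as Il1r2 at 2.71 in AJ and 1.41 in C3H, and Il18bp lies above it at 0.10 and 1.19.

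At 24 h, 0 members differed in response between strains by limma, where 0.46% of all genes passed (0.226% higher and 0.234% lower). Those calls over all genes were 28 higher and 29 lower as deposited and 32 higher and 18 lower with median centring, with 0 members under both. By an unadjusted p under 0.05, 1 was higher and 8 lower in C3H, with no share of all genes to set beside these counts. Il1rn stood at -0.98 ± 0.28 (adjusted p = 0.103) and Il1r1 at -1.04 ± 0.46 (adjusted p = 0.333). Without allergen array 5 of AJ, Il1rn passed at -1.17 (adjusted p = 0.0349), and the dimmest of its probe sets passed by itself at -1.32 (adjusted p = 0.0124 over probe sets). That probe set read 7.45, 6.96, 7.07, 7.35 and 6.79 with allergen in AJ and 5.75, 6.13, 6.37, 6.45 and 5.77 in C3H.

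Between 6 h and 24 h in AJ, the response of 6 members shrank and that of 1 grew, where 5.62% of all genes passed (3.53% upward and 2.1% downward). The upward share of these calls over all genes went from 62.7% as deposited to 44.8% with median centring, where 1 member was higher and 7 lower. It shrank for Il1r2 (-1.82 ± 0.30, adjusted p = 9.37e-05), Il1r1 (-1.48 ± 0.46, adjusted p = 0.0483), Il10ra (-1.28 ± 0.34, adjusted p = 0.0162), Il1a (-1.04 ± 0.26, adjusted p = 0.0109), Il10 (-0.91 ± 0.19, adjusted p = 0.00171) and Il34 (-0.82 ± 0.20, adjusted p = 0.00788), and grew for Il18bp (1.44 ± 0.27, adjusted p = 0.000563). Il1rn fell short of the threshold at -0.81 ± 0.28 (adjusted p = 0.0812), as did Il17ra at -0.71 ± 0.23 (adjusted p = 0.0616), whose second probe set passed at -0.90 (adjusted p = 0.00353 over probe sets). The call of Il1r1 held in 4 of the 20 fits that left out 1 array, those without PBS array 3 at 24 h, allergen array 5 at 6 h, or PBS array 2 or 3 at 6 h. In the others the adjusted p lay between 0.0511 and 0.101, and it was 0.0651 with quantile normalization and 0.141 with a pseudocount of 1. Il18bp was 2.32 with a pseudocount of 1 and 0.70 with 64. For Il10ra the mean of its 3 probe sets gave -0.48 (adjusted p = 0.143).

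In C3H, the allergen difference of 2 members was lower at 24 h than at 6 h and that of 0 higher, where 0.88% of all genes passed (0.436% higher and 0.444% lower). By an unadjusted limma p 1 was higher and 14 lower, again with no share of all genes to set beside these counts. The 2 that passed were Il1r2 (-1.34 ± 0.30, adjusted p = 0.0217) and Il1f9, the IL-36 gamma ligand (-1.07 ± 0.28, adjusted p = 0.0493). Il1f9 levels with allergen were 7.88, 7.80, 6.78, 7.34 and 7.78 at 6 h and 6.66, 5.91, 6.68, 6.16 and 6.99 at 24 h, against 7.07, 6.78, 7.03, 6.95 and 7.19 and 7.27, 7.09, 6.97, 6.62 and 7.24 with PBS. Both calls were fragile. That of Il1f9 held in 5 of the 20 fits that left out 1 array, those without allergen array 5 or PBS array 4 at 24 h, or without allergen array 3 or 4 or PBS array 5 at 6 h, with an adjusted p from 0.0589 to 0.116 in the others. That of Il1r2 was lost at -1.22 without allergen array 1 (adjusted p = 0.0629) or PBS array 2 at 6 h (adjusted p = 0.0514). On the 20 arrays compared alone neither passed (0.115 for Il1r2 and 0.123 for Il1f9). Il1f9 was also lost with quantile normalization (adjusted p = 0.0699), median centring (0.0836), a pseudocount of 1 (0.0644) or 64 (0.0537), and array weights (0.0799). Without allergen array 3 at 6 h, 4 members passed, with Il1rn at -1.2 (adjusted p = 0.0216) and Il6st at -0.53 (adjusted p = 0.0383) beside them.

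The members were also compared among PBS lungs. At 6 h, 2 were higher in C3H than in AJ and 0 lower, where 4.45% of all genes passed (2.36% higher and 2.1% lower), and by an unadjusted limma p 6 were higher and 2 lower. Il3ra, the IL-3 binding chain, read 5.28, 4.45, 4.51, 5.25 and 4.64 in AJ and 6.00, 6.83, 6.09, 5.96 and 5.59 in C3H (1.27 ± 0.23, adjusted p = 0.00043), without overlap. Il6st was higher by 0.47 ± 0.09 (adjusted p = 0.00123), the lists for which stand above, again without overlap. With the mean of its probe sets this call was lost (0.57, adjusted p = 0.0515). Without C3H array 5, 5 members passed, with Il17rc at 1.13 (adjusted p = 0.0147), Il1f5 at -0.58 (adjusted p = 0.0217) and Il15 at -0.38 (adjusted p = 0.0414) in addition. At 24 h Il6st alone was higher in C3H and 0 were lower, where 1.93% of all genes passed (1.09% higher and 0.839% lower), and by an unadjusted limma p 2 were higher and 2 lower. It read 9.65, 9.48, 9.41, 9.30 and 9.40 in AJ and 9.85, 9.86, 9.82, 9.72 and 9.86 in C3H (0.37 ± 0.09, adjusted p = 0.0179), without overlap. Without AJ array 4 this was 0.34 (adjusted p = 0.0683), on the arrays of the 2 groups alone the adjusted p was 0.0679, and the other Il6st probe sets stood at -0.22 and -0.45, so that their mean reversed the sign (-0.10).

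Between PBS lungs of AJ at 6 h and 24 h, 3 members were higher at 24 h and 0 lower, where 5.37% of all genes passed (2.9% higher and 2.48% lower), and by an unadjusted limma p 4 were higher and 5 lower. The higher share of the calls over all genes went from 53.9% as deposited to 39.1% with median centring, while 3 members were higher and 0 lower under both. Il17rc rose from 6.03, 5.09, 4.89, 6.13 and 5.88 to 6.91, 6.82, 6.93, 6.47 and 7.32 (1.29 ± 0.30, adjusted p = 0.0077), Il3ra from 5.28, 4.45, 4.51, 5.25 and 4.64 to 5.78, 6.17, 5.89, 5.92 and 5.80 (1.08 ± 0.23, adjusted p = 0.00325), and Il1f6, the IL-36 alpha ligand, from 6.16, 6.46, 6.56, 6.42 and 6.95 to 7.12, 7.0, 7.64, 7.27 and 6.91 (0.68 ± 0.20, adjusted p = 0.0352). The first pair of genes did not overlap between times, and the last did. The fall of Il17rc with allergen at 24 h is thus measured against PBS arrays that stood higher than those at 6 h. Both Il3ra differences, between strains and between times, are measured against the same AJ PBS arrays at 6 h. They are not independent, and Il3ra did not pass between strains at 24 h. Il1f6 lost the call without array 1, 3 or 4 at 24 h or array 1, 2, 3 or 4 at 6 h (adjusted p from 0.0555 to 0.117). The Il3ra values with pseudocounts of 1 and 64 were 2.08 and 0.61 between strains and 1.86 and 0.49 between times, and Il17rc was 0.77 between times with 64. In C3H 0 members differed between the times by limma, where 3.21% of all genes passed (1.76% higher and 1.45% lower), with 0 higher and 6 lower by an unadjusted p. Without array 3 at 24 h Il18rap passed (-0.51, adjusted p = 0.0191), and without array 4 at 6 h Il1rn did (-0.74, adjusted p = 0.0331).

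Of 40 listed genes of interleukin signalling that are no members, 35 were measured. The list holds kinases, STAT factors, adaptors and feedback inhibitors, and also some ligands and receptors. In AJ at 6 h 20 rose and 2 fell, in AJ at 24 h 10 rose, in C3H at 6 h 11 rose and in C3H at 24 h 4 rose, with 0 falls in the last 3. Over all genes 19.0%, 7.84%, 7.62% and 3.24% passed in these comparisons. The median differences of the list were 0.57, 0.30, 0.22 and 0.08, beside -0.07, -0.00, -0.00 and -0.04 over all genes. Socs3, a feedback inhibitor of gp130 signalling, rose in all 4 comparisons, by 2.88 ± 0.17, 1.62 ± 0.17, 1.86 ± 0.17 and 0.81 ± 0.17 (adjusted p = 0.00392 for the last). Csf2rb, the common beta chain of the IL-3 and IL-5 receptors, did so too, by 1.17 ± 0.20, 1.43 ± 0.20, 1.34 ± 0.20 and 0.87 ± 0.20 (adjusted p = 0.0105 for the last). Myd88, the adaptor of IL-1 receptors, rose by 1.25 ± 0.12, 0.54 ± 0.12 and 0.93 ± 0.12 in the first 3 and stood at 0.06 ± 0.12 in C3H at 24 h (adjusted p = 0.84). The NF-kappaB cofactors Bcl3 and Nfkbiz rose by 2.62 ± 0.19 and 1.96 ± 0.19 in AJ at 6 h and by 1.27 ± 0.19 and 1.08 ± 0.19 in C3H. Socs1 and Cish, feedback inhibitors of cytokine receptors, rose by 1.80 ± 0.25 and 1.72 ± 0.14 in AJ at 6 h and by 1.88 ± 0.25 and 0.94 ± 0.14 in C3H, and neither passed at 24 h. The 2 genes that fell in AJ at 6 h were Lifr, the receptor of leukemia inhibitory factor (-1.01 ± 0.20, adjusted p = 0.000222), and the Janus kinase Tyk2 (-0.47 ± 0.12, adjusted p = 0.00328).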

How the data were processed

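Values were the authors' deposited intensities for each probe set of each array, linear and with none at or below 0. Each array had been scaled to a common 2% trimmed mean (150.036 to 150.046, as the deposited values show), and array medians ran from 63.7 to 81.3. The scanner software and summary method are not given in the sources used here. Of 22690 probe sets, 64 were controls, 20380 had 1 gene symbol in the platform annotation, 691 several and 1555 none. Deposited intensities were taken as log2(intensity + 16), where 13.6% of intensities lay below 16, and the probe set with the highest mean stood for each of 12393 genes (17 members have several).

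Group means of all 8 groups were fitted on the 40 arrays with limma 3.58.1 in R 4.3.3, and 12 contrasts were tested with Benjamini-Hochberg adjustment over all genes, at 0.05. The steps were checked on simulated data. The labels name no batch. Members, families, marker and signalling lists were chosen with earlier results of these data known. Any member that passed a comparison could be named. Levels by array were due for the 8 largest changes of each allergen comparison, the 4 largest of each other one, and Il1a, Il1rn, Il1r1, Il1r2, Il18, Il10, Il12b, Il17a, Il6ra, Il6st, Il7r, Il2ra, Il15 and Il9, and are given in the groups that bear on each result. Alternatives were pseudocounts of 1 and 64, median centring, quantile normalization, the mean of all probe sets, each probe set by itself (added after seeing the data), leaving out the dimmest 25% of genes, only the arrays compared, array weights, the replicate number as a block, and leaving out each array. The number of arrays limits the precision. The 2 probe sets that carry a matching symbol beside others were not used.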

Additional observations from a re-analysis of the deposited data

Results flagged for a closer look

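Single arrays stood apart from the other 4 of their group by Dixon's test in 13 of 192 tests of a member in a group of 5, where chance gives about 1 in 20. In AJ with PBS, Il10ra (5.09, others 4.48 to 4.62) and Il18bp (5.62, others 4.48 to 4.60) were both high on array 5 at 24 h, and at 6 h Il2ra was high on array 1 (6.32, others 5.22 to 5.53) and Il1f9 low on array 4 (6.85, others 7.17 to 7.29). In AJ with allergen at 24 h, array 5 was low for Il1rn (7.21, others 8.03 to 8.25) and for Il17a (6.24, others 6.54 to 6.63). In AJ with allergen at 6 h, Il17a was high on array 2 (7.50, others 6.86 to 6.96), Il21r low on array 4 (4.36, others 5.27 to 5.6) and Il7r high on array 1 (8.31, others 7.11 to 7.45). In C3H with PBS at 6 h, array 2 was low for Il1r1 (5.23, others 6.65 to 7.02) and Il1f6 (6.26, others 6.54 to 6.65), and array 1 high for Il18bp (5.34, others 4.38 to 4.55). In C3H with allergen at 24 h, Il1r2 was low on array 3 (5.69, others 6.04 to 6.06). The summed neutrophil markers were also lowest of their group on array 2 of C3H with PBS at 6 h, at 2125. On array 5 of AJ with allergen at 24 h, low for Il1rn and Il17a, they were the highest of their group, at 10093. Their part was not tested.

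The allergen difference itself differed between strains or times for 14 pairs of member and contrast (limma, adjusted p under 0.05). Between strains at 6 h (C3H minus AJ) these were Il10ra (-1.55), Il1r2 (-1.30), Il17ra (-1.02), Il10 (-0.92) and Il18bp (1.09). Between times in AJ (24 h minus 6 h) they were Il1r2 (-1.82), Il1r1 (-1.48), Il10ra (-1.28), Il1a (-1.04), Il10 (-0.91), Il34 (-0.82) and Il18bp (1.44). Between times in C3H they were Il1r2 (-1.34) and Il1f9 (-1.07).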

How the results depend on the processing

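Counts of members that passed are given here as the main value against the alternative where they moved by over 1.5 times. With only the arrays compared, 10 became 6 in C3H at 6 h, 5 became 1 for the strain difference at 6 h, 2 became 0 for the time difference in C3H, 1 became 0 for PBS between strains at 24 h, and 0 became 1 for the strain difference at 24 h (Il1r2, -0.82). Without the dimmest 25% of genes, which left 36 members, 1 became 0 in C3H at 24 h and 2 became 1 for PBS between strains at 6 h. The members concerned, Il18bp and Il3ra, were among the genes left out and so could not be called. With median centring or a pseudocount of 1, 2 became 1 for the time difference in C3H. With array weights the same 2 became 1, 0 became 1 for the strain difference at 24 h (Il1rn), 3 became 5 for PBS between times in AJ and 0 became 2 in C3H (Il18rap and Il1rn). With the mean of all probe sets, 0 became 1 for the strain difference at 24 h (Il1rn, -1.02) and for PBS between times in C3H (Il1rn, -0.72), and 1 became 0 for PBS between strains at 24 h, where Il6st reversed to -0.10 (adjusted p = 0.913). With each probe set by itself, 0 became 1 for the strain difference at 24 h and for PBS between times in C3H. Leaving out 1 array gave 15 to 17 in AJ at 6 h, 8 to 11 in AJ at 24 h, 7 to 11 in C3H at 6 h, 1 to 3 in C3H at 24 h (3 without allergen array 5), 5 to 7 and 0 to 1 for the strain difference at 6 h and 24 h (1 without AJ allergen array 5), 6 to 8 and 0 to 4 for the time difference in AJ and C3H, 2 to 5 and 0 to 1 for PBS between strains at 6 h and 24 h, and 2 to 3 and 0 to 1 for PBS between times in AJ and C3H. For the time difference in C3H, 0 passed without allergen array 1 or PBS array 2 at 6 h, 4 without allergen array 3 at 6 h, and 1 without any of 12 other arrays. The fewer arrays in some fits and the dim genes left out apart, the causes were not tested.

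With the replicate block, the members that passed were 18, 10, 11 and 1 in the allergen comparisons (main 17, 10, 10 and 1 in AJ at 6 h and 24 h and C3H at 6 h and 24 h), 6 and 0 for the strain differences, 7 and 3 for the time differences in AJ and C3H, 2 and 1 for PBS between strains and 3 and 0 between times. None of the 58 passing values was lost with the block. The numbers did not pair the arrays: correlations of deviations between arrays of 1 number ran from -0.26 to 0.26, at most 2 of 5 pairs exceeded 0.1, and at most 4 of 10 arrays correlated best with their own number. Of the 58 passing values, those lost numbered 14 with only the arrays compared, 14 in at least 1 fit that left out an array, 4 with a pseudocount of 1, 1 with 64, 2 with median centring, 3 with quantile normalization, 1 with array weights, and 0 of the 42 that could be tested without the dimmest genes. With the mean of all probe sets 4 did not pass, 1 of them reversed. Dim members set the limit: 11 of 57 had a median intensity below 16, and their differences depend most on the pseudocount.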

Other observations

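Other cell type markers were read on the same arrays, with limma adjusted over all genes as before. Of 6 B and plasma cell markers measured, 2 rose in AJ at 6 h, 2 in AJ at 24 h, 1 in C3H at 6 h and 1 in C3H at 24 h. Of 8 mast cell and basophil markers, 1 rose in each of the first 3 comparisons and 1 fell in AJ at 6 h. Of 5 endothelial markers, 3 fell in AJ at 6 h, 1 in AJ at 24 h, 2 in C3H at 6 h and 1 in C3H at 24 h. Of the 9 lung epithelium markers, 2 fell in AJ at 6 h, 3 in AJ at 24 h and 1 in C3H at 6 h. Their part in the members' values was not tested.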
